A study of Mus musculus with 6 samples.

Results

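H/ACA small nucleolar RNAs (H/ACA snoRNAs) are short noncoding RNAs of the nucleolus, and the closely related small Cajal body RNAs (scaRNAs) reside in Cajal bodies. Each one folds into hairpins, pairs with a target RNA and directs the pseudouridine synthase dyskerin to a chosen uridine. snoRNAs modify ribosomal RNA in this way, whereas scaRNAs modify the RNAs of the spliceosome, and a few members such as U17, encoded by Snora73a and Snora73b, serve in the cleavage of the ribosomal RNA precursor instead. In mammals nearly all of them are cut out of introns of host genes, so that the host transcript and the snoRNA are made together but decay separately. The members described here are the rows of the expression table whose annotated gene symbol starts with Snora or Scarna, 42 of 24479 rows, of which 34 are Snora and 8 are Scarna genes. In human cells SCARNA2 and SCARNA9 belong to the C/D class, the other class of guide RNA, and SCARNA6 and SCARNA10 combine both kinds of domain, so that the symbol rule takes in some RNAs that are not purely H/ACA.

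Liver sinusoidal endothelial cells (LSEC), the fenestrated endothelium of the hepatic sinusoids, were isolated by collagenase perfusion, a density gradient and magnetic sorting for CD146. The Lyve-1-KO mice carried a constitutive deletion (B6.129S1-Lyve1tm1Lhua/J, C57BL/6 background), and the control (Ctrl) mice were C57BL/6J, all untreated. Cells of 3 mice were pooled per sample, and 3 pools per group were hybridized to 1 Affymetrix MoGene-2_0-st array each. The age and sex of the mice behind each pool are not given in the sources used here. Control mice of the study were in part littermates and in part purchased, which is not stated for the arrays, so that origin and genotype cannot be told apart. Values are log2 signals after quantile normalization, with a median of 5.04 in every array and a range from 2.92 to 13.87, and correlations between arrays were 0.993 to 0.996 within and 0.991 to 0.996 between the groups. The signal of Lyve1, the deleted hyaluronan receptor gene, was 12.85, 12.88 and 12.83 in the arrays labelled Lyve-1-KO and 12.78, 12.69 and 12.84 in the Ctrl arrays, so that this signal was not lower where the gene is labelled as deleted. Directions below refer to the labels, and the arrays labelled Lyve-1-KO are called KO-labelled. Where its probes lie relative to the deleted part is not analysed here, and probes outside that part would not check the label. The study examined Lyve-1 protein in liver tissue by other methods, which are not part of these data. The 8 LSEC markers of the fixed list, among them Stab2 and Clec4g, had mean signals from 11.88 to 13.69, near the top of the array range. In pooled cells a lower amount of RNA per cell and a smaller share of cells holding that RNA cannot be told apart.

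Most H/ACA members lay lower in the KO-labelled arrays, and a small group lay higher. Of the 42 members, 28 had a log2 difference below 0, against 51.2% of all genes, and the median over the members was -0.20, against -0.00374 over all genes. At a limma p under 0.05 without adjustment (the unadjusted limit), 16 members were lower, against 5.33% of all genes, and 3 were higher, against 5.87% of all genes. In 13 members all signals of the KO-labelled arrays lay below all Ctrl signals, against 8.73% of all genes, and in 3 members they lay above, against 8.71%. A log2 difference of -0.5 or lower was found in 11 members, against 0.825% of all genes, among them Snora73a, Snora16a, Snora17, Snora30 and Snora73b, whereas 22 members stayed within 0.3 of 0 in either direction. With p-values adjusted by Benjamini-Hochberg over the whole table, limma called no member, where 1 gene in all (0.00409%) was called, and the lowest adjusted p of a member was 0.0901. When limma used a variance that was trended and robust, 5 members passed, against 0.2% of all genes, namely Snora16a and Snora62 (adjusted p = 0.0204 each), Snora34 and Snora17 (0.0258 each) and Snora52 (0.0443). Without Ctrl replicate 3, the array in which 15 members had the highest of their 6 signals, the median over the members was -0.12, with 13 lower and 5 higher members at the unadjusted limit. The share of all genes at that limit without this array is not given here, so these counts have no background beside them. With the replicate number as a block, 15 members were lower, against 5.49% of all genes, and 4 were higher, against 5.78%. The lowest limma adjusted p of a member was then 0.169, for Snora62, with 0.171 for Snora34 and 0.214 each for Snora17, Snora16a and Snora52. Standard errors and intervals given here, and limma p-values unless another fit is named, are from the fit without the block. With the methods' test, a one-way analysis of variance for each gene without a shared variance, 8 members were lower, against 4.93% of all genes, and 0 were higher, against 5.18%, both without adjustment.

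**Figure D1:**
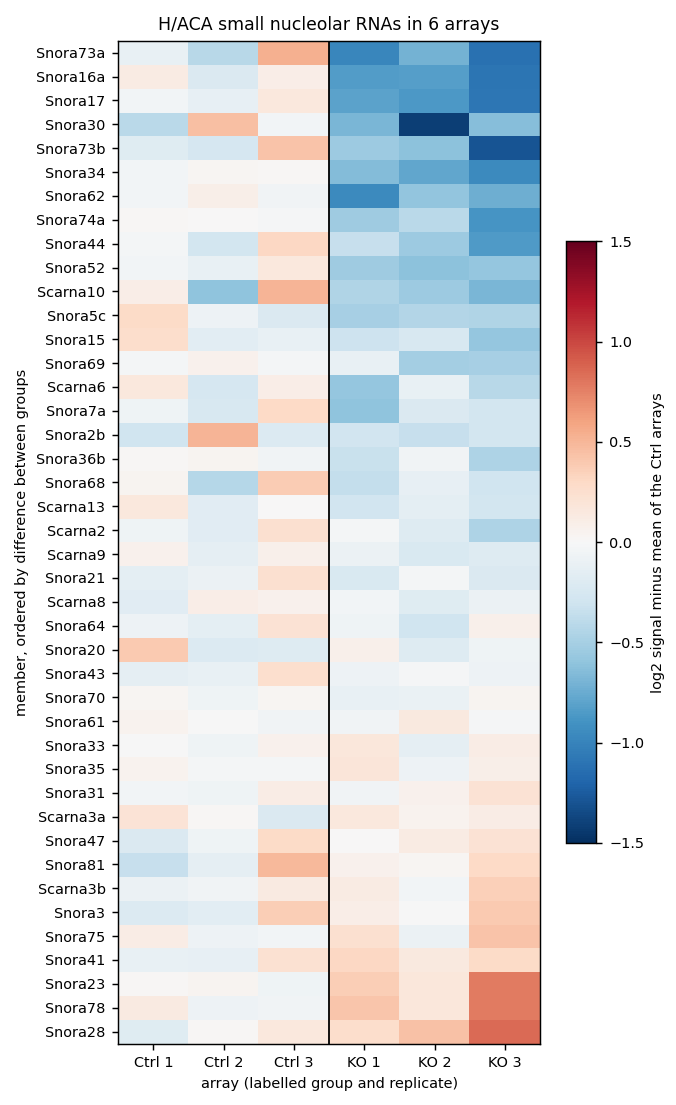
Log2 signal of each of the 42 members (rows, ordered by the difference between the groups) in the 6 arrays (columns), minus the mean of the 3 Ctrl arrays, in colour from blue (lower) to red (higher). The upper rows are blue in all 3 KO-labelled arrays, and the lowest rows, Snora23, Snora78 and Snora28, are red there.

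The 5 members with the smallest p were Snora34, Snora17, Snora16a, Snora62 and Snora52, snoRNAs that lie in host genes on different chromosomes. Snora34, at chr15:98519717-98519834 of GRCm38 within the span of Kansl2, had signals of 7.70, 7.77 and 7.76 in the Ctrl arrays and of 7.09, 6.97 and 6.79 in the KO-labelled arrays. The groups were clearly apart, with a gap larger than the spread of either group, and the log2 difference was -0.80 (standard error 0.09, limma adjusted p = 0.0901), or 1.74-fold lower. Snora17, at chr2:26639190-26639321 within Snhg7, had 7.24, 7.16 and 7.45 against 6.48, 6.42 and 6.20. Its log2 difference was -0.92 (standard error 0.11, limma adjusted p = 0.0901), and again the highest KO-labelled array stayed well below the lowest Ctrl array. Snora16a, at chr4:132309465-132309600 within Snhg12, had 10.08, 9.74 and 10.05 against 9.12, 9.13 and 8.86, a log2 difference of -0.92 (standard error 0.12, limma adjusted p = 0.124). Here Ctrl replicate 2 was the lowest of its group and still lay above every array of the other group.

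Snora62, known as E2 and located at chr9:120130434-120130563 within Rpsa, had signals of 9.71, 9.83 and 9.69 in the Ctrl arrays and of 8.79, 9.15 and 9.01 in the KO-labelled arrays, a log2 difference of -0.76 (standard error 0.10, limma adjusted p = 0.136). Snora52, at chr7:141448803-141448936 within Rplp2, had 8.37, 8.31 and 8.57 against 7.88, 7.80 and 7.83, a log2 difference of -0.58 (standard error 0.08, limma adjusted p = 0.148). In both snoRNAs the groups did not overlap, and the signals of Snora52 in the KO-labelled arrays were close to each other (SD 0.04, n = 3). Every member with separate groups had p = 0.1 in a two-sided exact permutation test over its 6 values, the smallest that 3 arrays against 3 allow. This test did not use the replicate numbers, and an exact test within the 3 numbered pairs cannot give a p below 0.25.

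**Figure D2:**
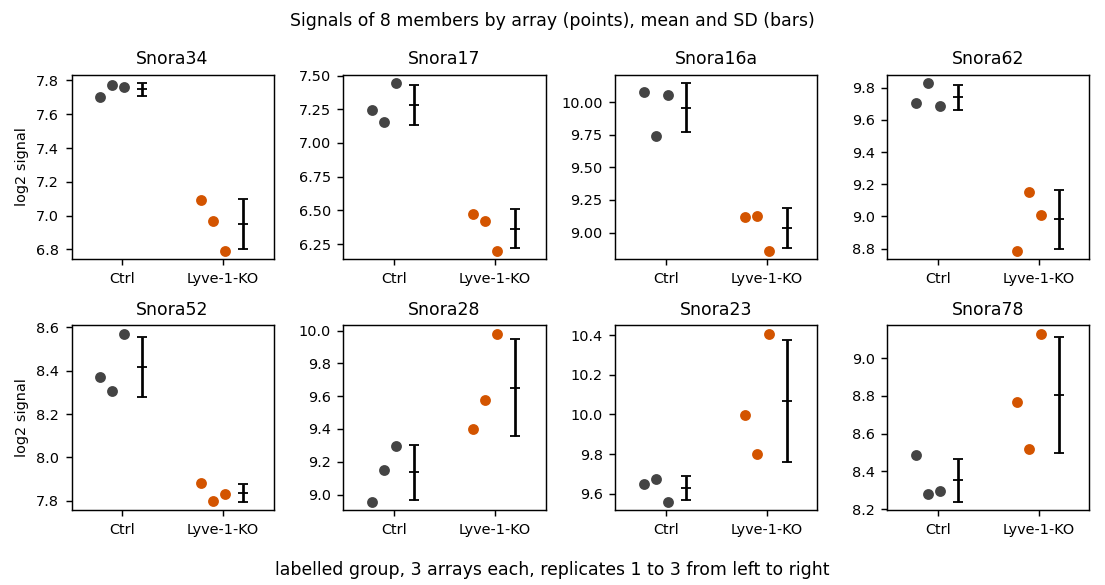
Log2 signals of 8 members in the 3 Ctrl arrays and the 3 KO-labelled arrays (points), with the mean and SD of each group (bars) and a separate axis for each member. Snora34, Snora17, Snora16a, Snora62 and Snora52 are lower and Snora28, Snora23 and Snora78 are higher in the KO-labelled arrays, without overlap of the groups.

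The U17 snoRNAs had the lowest log2 differences together with Snora16a, Snora17 and Snora30, but varied more between the arrays. U17, whose yeast counterpart is needed for the early cleavages that release the RNA of the small ribosomal subunit, is encoded by Snora73a and Snora73b within Snhg3 on chromosome 4. Snora73a had signals of 6.54, 6.24 and 7.18 in the Ctrl arrays and of 5.68, 5.94 and 5.53 in the KO-labelled arrays, a log2 difference of -0.93 (standard error 0.24, limma adjusted p = 0.271). Snora73b had 8.42, 8.35 and 9.03 against 8.05, 7.99 and 7.31, a log2 difference of -0.82 (standard error 0.25, limma adjusted p = 0.334). Ctrl replicate 3 was the highest and Lyve-1-KO replicate 3 the lowest array for both. The 2 genes are near-identical copies, so that probes of one may also bind the RNA of the other and the pair does not count as independent members. Snora74a, known as U19 and located within Snhg4 on chromosome 18, had a dimmer signal of 5.33, 5.32 and 5.31 against 4.79, 4.92 and 4.44, a log2 difference of -0.61 (standard error 0.12, limma adjusted p = 0.211).

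Of the other members with separate groups, Snora30 within Srcap, which encodes a chromatin remodelling ATPase, had 6.78, 7.63 and 7.14 in the Ctrl arrays against 6.49, 5.76 and 6.54. Its log2 difference of -0.92 had the largest standard error of all members, 0.27 (limma adjusted p = 0.327), and its gap between the groups was small. Snora44, a second snoRNA of Snhg12, had 8.84, 8.60 and 9.18 against 8.53, 8.33 and 8.02, a log2 difference of -0.58 (standard error 0.18, limma adjusted p = 0.335). Snora5c, within the mitochondrial RNA regulator gene Tbrg4, had a log2 difference of -0.46, Snora15, within the chaperonin gene Cct6a, of -0.38 and Snora69, within Rpl39, of -0.37. Their limma adjusted p ranged from 0.295 to 0.40, and their groups were separate but close.

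Higher signals without overlap of the groups were limited to Snora28, Snora23 and Snora78. Snora28, within Eif5, the gene of a translation initiation factor, had 8.96, 9.15 and 9.29 in the Ctrl arrays and 9.40, 9.57 and 9.98 in the KO-labelled arrays, a log2 difference of 0.52 (standard error 0.16, limma adjusted p = 0.335). Snora23, within Ipo7, the gene of a nuclear import receptor, had 9.65, 9.67 and 9.56 against 9.996, 9.80 and 10.41, a log2 difference of 0.44 (standard error 0.15, limma adjusted p = 0.369). Snora78 had 8.48, 8.28 and 8.29 against 8.77, 8.52 and 9.13, a log2 difference of 0.45 (standard error 0.15, limma adjusted p = 0.373). In all 3 snoRNAs Lyve-1-KO replicate 3 was the highest array.

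**Figure D3:**
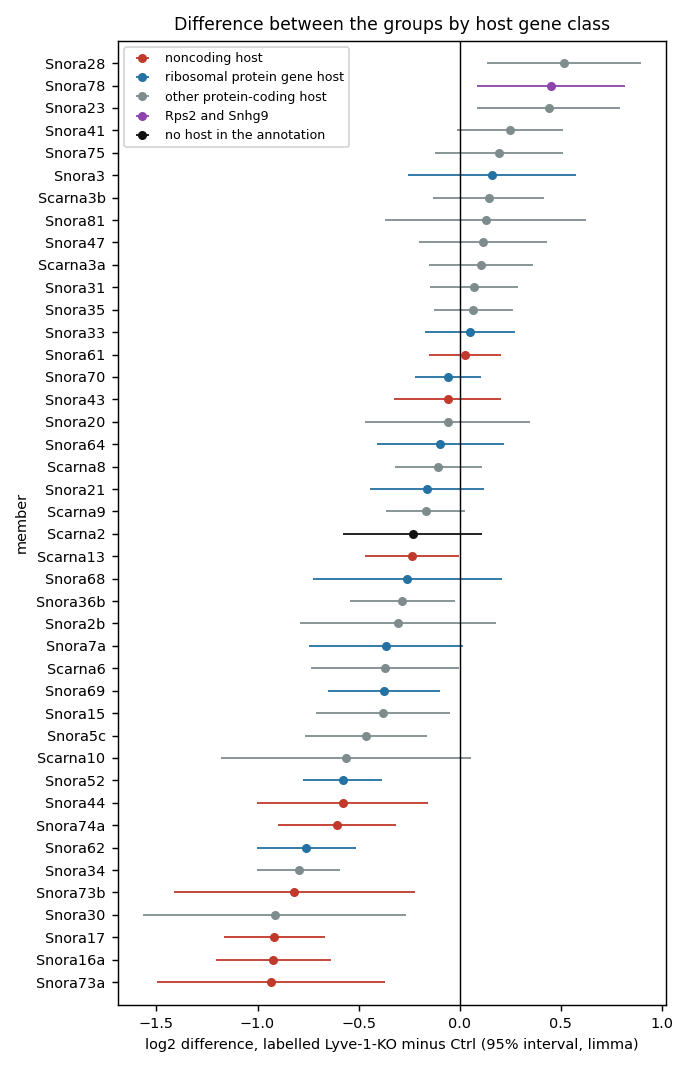
Log2 difference between the KO-labelled arrays and the Ctrl arrays (points) with its 95% interval from limma (lines) for each of the 42 members, in colour by the class of the host gene. The intervals of 16 members lie below 0 and those of 3 members above 0, and the noncoding hosts (red) contribute 7 of the former.

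The 8 scaRNAs had a median log2 difference of -0.20, with 6 below 0 and no separation of the groups in any of them. Scarna13, known as U93 and located within Snhg10, had signals of 9.19, 8.86 and 9.03 in the Ctrl arrays and of 8.74, 8.89 and 8.75 in the KO-labelled arrays, a log2 difference of -0.24 (standard error 0.10, limma adjusted p = 0.44). Scarna6 had 8.89, 8.48 and 8.83 against 8.16, 8.62 and 8.32, a log2 difference of -0.37 (standard error 0.15, limma adjusted p = 0.442). In both Ctrl replicate 2 lay within the range of the other group. Scarna10, within the condensin gene Ncapd2, had the widest Ctrl signals of all members, 4.31, 3.61 and 4.72, against 3.76, 3.66 and 3.53, all below the array median. Scarna9 and Scarna2 had log2 differences of -0.17 and -0.23, and Scarna8, Scarna3a and Scarna3b of -0.10, 0.11 and 0.14.

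Of the members not named so far, Snora36b (-0.28) was also past the unadjusted limit, with a signal below the array median and groups that overlapped by a narrow margin. Snora7a, Snora2b and Snora68 had log2 differences of -0.37, -0.30 and -0.26, and Snora21, Snora64, Snora20, Snora43 and Snora70 lay between -0.16 and -0.06. On the other side Snora41, within the elongation factor gene Eef1b2, had a difference of 0.25 and Snora75, within the nucleolin gene Ncl, of 0.20. Snora3, Snora81, Snora47, Snora31, Snora35, Snora33 and Snora61 lay between 0.02 and 0.16. Snora35, known as a brain-specific snoRNA and located within the serotonin receptor gene Htr2c, had dim signals of 3.999 to 4.26 in the 6 arrays, and Htr2c itself had a mean signal of 3.50 in the Ctrl arrays. Mean signals of 10 members lay below the array median, and those of Snora20 and Snora70 also lay below the lower quartile of 3.80. Signals of different members are not comparable, since each rests on its own probes.

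The members were then grouped by the gene that encloses them in RefSeq, GRCm38.p6. An enclosing gene was found for 41 members, in 9 cases a noncoding host, in 10 a ribosomal protein gene, in 21 another protein-coding gene and in 1 case, Snora78, both Rps2 and Snhg9, while Scarna2 had none. Strand is not part of the gene table used, so that hosts were taken by position alone. This grouping was described after the values had been seen and is given without a test. Among members in noncoding hosts 8 of 9 lay below 0 with a median of -0.61, and 7 were lower at the unadjusted limit. Among those in ribosomal protein genes 8 of 10 lay below 0 with a median of -0.21, and 3 were lower. Among those in other protein-coding genes 11 of 21 lay below 0 with a median of -0.06, with 6 lower and 2 higher. Snora78 is in none of these classes, although Snhg9 is noncoding too. It had a difference of 0.45 and was higher at the unadjusted limit. Over all genes the shares at the same limit were 5.33% lower and 5.87% higher.

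The noncoding hosts had log2 differences from -0.06 to 0.43, beside snoRNAs that mostly lay below 0. The small nucleolar RNA host genes (Snhg) carry snoRNAs in their introns, and their spliced transcripts encode no protein. Snhg12, the host of Snora16a, Snora44 and Snora61, had 7.06, 7.39 and 7.43 in the Ctrl arrays and 7.62, 7.70 and 7.84 in the KO-labelled arrays, a log2 difference of 0.43 (standard error 0.12, limma adjusted p = 0.29). Its groups were separate in the direction opposite to Snora16a and Snora44. Snhg3, the host of both U17 genes, had 6.35, 6.18 and 6.13 against 6.60, 6.35 and 6.39, a log2 difference of 0.23 (standard error 0.09, limma adjusted p = 0.443). Snhg7, the host of Snora17 and Snora43, had a log2 difference of -0.06, Snhg4 of 0.10 and Snhg10 of 0.11. Over the 5 noncoding hosts with a row the median was 0.11, which was 0.19 without Lyve-1-KO replicate 2. Snhg9 is not among these 5, because Snora78 was assigned to both Snhg9 and Rps2. It had a log2 difference of 0.26 (standard error 0.07, limma adjusted p = 0.29) with separate groups, in the same direction as Snora78 (0.45). All 18 Snhg rows of the table had a median of 0.11, with 5 higher and 0 lower at the unadjusted limit, against 5.87% and 5.33% of all genes. None was called after adjustment.

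**Figure D4:**
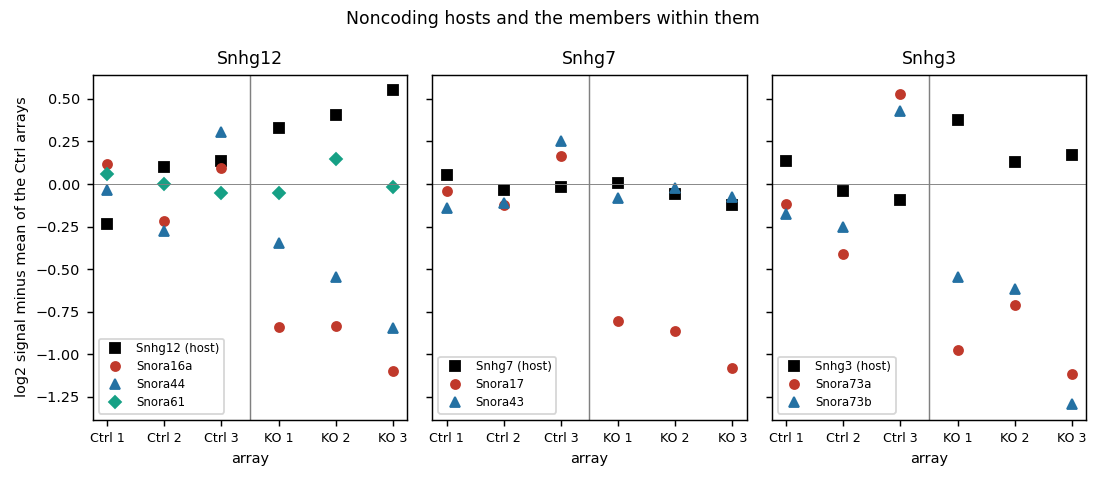
Log2 signal minus the mean of the Ctrl arrays (vertical axis) in the 6 arrays for the noncoding hosts Snhg12, Snhg7 and Snhg3 (black squares) and the snoRNAs within them (coloured symbols). Snora16a, Snora44, Snora17, Snora73a and Snora73b lie below 0 in the KO-labelled arrays, whereas Snora61, Snora43 and the hosts do not follow them.

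Protein-coding hosts of the members past the unadjusted limit had differences of either sign. Kansl2, a subunit gene of a histone acetyltransferase complex, had a log2 difference of -0.00195 (limma adjusted p = 0.995) beside -0.80 for Snora34, and the ribosomal protein gene Rpsa of 0.03 (adjusted p = 0.964) beside -0.76 for Snora62. Ipo7 had -0.02 beside 0.44 for Snora23, and Eif5 0.14 beside 0.52 for Snora28. Srcap, the host of Snora30, had 9.89, 9.87 and 9.95 in the Ctrl arrays against 10.14, 9.96 and 10.12, a difference of 0.17 (standard error 0.07, limma adjusted p = 0.449) beside -0.92 for its snoRNA, and these groups did not overlap. Cct6a had -0.13 beside -0.38 for Snora15, and Tbrg4 had -0.05 beside -0.46 for Snora5c. Rpl23, the ribosomal protein host of Snora21, showed the opposite order, with -0.39 for the host (standard error 0.14, adjusted p = 0.395) and -0.16 for the snoRNA. A row for the host was present for 36 members, and Rplp2, the host of Snora52, had none. Over the 35 members with exactly 1 measured host, member and host had the same sign in 16, and the member's difference was larger in size than the host's in 29. Snora78, with both Rps2 and Snhg9 measured, was left out. Its difference had the sign of Snhg9 (0.26) and not that of Rps2 (-0.06). Across these 35 pairs, Pearson's r of the log2 differences was -0.43 and Spearman's rho -0.48, a description over genes that share the same 6 arrays and in part the same host. All 31 measured host genes together had a median log2 difference of -0.02, with 4 higher and 4 lower at the unadjusted limit, against 5.87% and 5.33% of all genes.

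**Figure D5:**
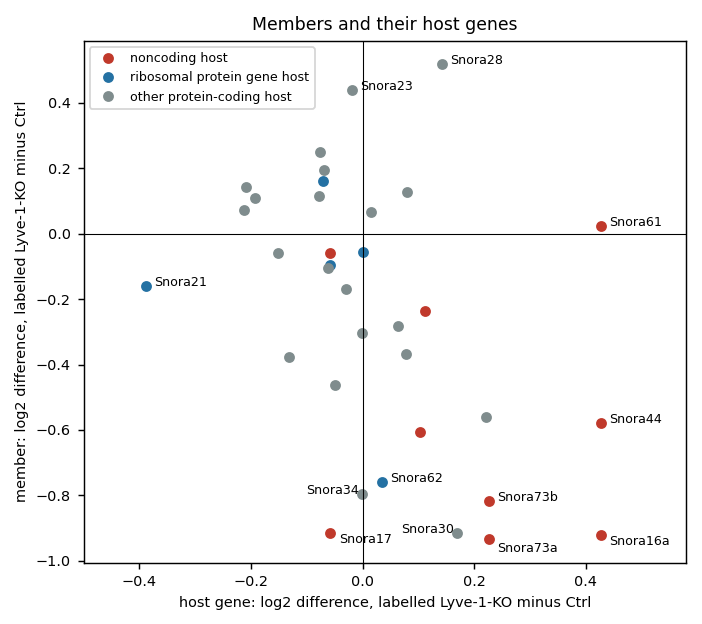
Log2 difference (KO-labelled arrays minus Ctrl) of each of 35 members (vertical axis) against that of its host gene (horizontal axis), in colour by the class of the host. Snora16a, Snora44, Snora73a and Snora73b lie at the lower right, where the member was lower and the host higher.

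snoRNAs of the same host were then compared with each other. In Snhg12, Snora61 had signals of 4.44, 4.38 and 4.33 in the Ctrl arrays and of 4.33, 4.53 and 4.37 in the KO-labelled arrays, a log2 difference of 0.02 with a 95% interval from -0.15 to 0.20, while Snora16a and Snora44 were lower. In Snhg7, Snora43 had 5.82, 5.85 and 6.21 against 5.88, 5.94 and 5.89, a log2 difference of -0.06 with an interval from -0.32 to 0.21, beside -0.92 for Snora17. The signals of Snora61 were below and those of Snora43 above the array median. Snora61 is annotated with only 62 bases, against 136 for Snora16a and 117 for Snora44. Whether its probes read the snoRNA as well as those of the other members was not tested. Within each array, the log2 signal of Snora17 minus that of Snora43 was 1.42, 1.31 and 1.23 in the Ctrl arrays and 0.60, 0.48 and 0.31 in the KO-labelled arrays, and that of Snora16a minus Snora61 was 5.64, 5.36 and 5.72 against 4.79, 4.60 and 4.49. Of the 7 same-host pairs, 5 had separate groups in this within-array difference, against 43.0% of all 861 pairs of members, each with p = 0.1 by the exact two-sided permutation test and p = 0.14 after Benjamini-Hochberg adjustment over the 7 pairs. The exceptions were the U17 copies Snora73a and Snora73b, with a difference between the groups of -0.11 (exact permutation p = 0.7), and Snora2b and Snora34 of Kansl2 (0.49, exact permutation p = 0.3), where Ctrl replicate 2 of Snora2b stood apart at 5.23 beside 4.42 and 4.52. Of these pairs 3 are the differences among Snora16a, Snora44 and Snora61 of Snhg12 and depend on each other. Snora64 (-0.10) and Snora78 (0.45) were paired because both lie within the widest annotated span of Rps2, but Snora78 lies before the Rps2 start printed below and within Snhg9, whose log2 difference was 0.26. Without them 4 of 6 pairs had separate groups.

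Since snoRNA host genes and ribosomal protein genes are known for transcripts that begin with a run of pyrimidines, the 5′ terminal oligopyrimidine motif, the annotated starts of the hosts were read from RefSeq. A run of at least 5 letters C or T that touched the 5 bases before or the 5 bases after the annotated start on the gene's strand was found in 13 of 32 host genes with a sequence, against 35.1% of all 27025 genes with one. By class it was found in 4 of 4 noncoding hosts, 4 of 8 ribosomal protein hosts and 4 of 19 other protein-coding hosts, and in Snhg9. These counts take in runs that do not span the annotated start. Among the noncoding hosts, the runs of Snhg7 and Snhg12 span it, that of Snhg10 ends before it and that of Snhg3 begins after it. The annotated start may differ from the start used in LSEC. The windows are those of every host with a sequence among the hosts of members with separate groups, 30 bases before and 20 bases from the annotated start, with the longest pyrimidine run at the start in capitals. They are shown so that hosts of low members, from Kansl2 to Cct6a, can be set beside hosts of high ones, Eif5, Ipo7 and Snhg9. Rps2 is listed only because its widest annotated span holds Snora78:
Kansl2 (Snora2b, Snora34; chr15:98534250-98534299, minus strand): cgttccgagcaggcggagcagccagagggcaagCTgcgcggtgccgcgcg
Snhg7 (Snora17, Snora43; chr2:26640225-26640274, minus strand): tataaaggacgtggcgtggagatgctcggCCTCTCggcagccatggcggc
Snhg12 (Snora16a, Snora44, Snora61; chr4:132308648-132308697, plus strand): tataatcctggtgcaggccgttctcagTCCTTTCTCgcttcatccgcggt
Rpsa (Snora62; chr9:120127736-120127785, plus strand): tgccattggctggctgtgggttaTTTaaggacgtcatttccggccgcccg
Rplp2 (Snora52; chr7:141447621-141447670, plus strand): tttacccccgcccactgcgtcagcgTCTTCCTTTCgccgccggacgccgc
Snhg3 (Snora73a, Snora73b; chr4:132353667-132353716, minus strand): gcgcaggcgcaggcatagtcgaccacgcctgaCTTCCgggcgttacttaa
Tbrg4 (Snora5c; chr11:6626048-6626097, minus strand): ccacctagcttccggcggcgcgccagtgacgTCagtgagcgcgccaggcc
Srcap (Snora30; chr7:127511953-127512002, plus strand): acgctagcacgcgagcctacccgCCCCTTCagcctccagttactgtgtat
Rpl39 (Snora69; chrX:37085203-37085252, minus strand): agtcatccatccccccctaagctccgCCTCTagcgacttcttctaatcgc
Cct6a (Snora15; chr5:129787326-129787375, plus strand): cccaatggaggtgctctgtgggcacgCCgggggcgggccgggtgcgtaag
Eif5 (Snora28; chr12:111538071-111538120, plus strand): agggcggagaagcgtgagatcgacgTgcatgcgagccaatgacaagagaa
Ipo7 (Snora23; chr7:110018285-110018334, plus strand): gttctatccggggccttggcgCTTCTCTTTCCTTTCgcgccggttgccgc
Rps2 (Snora64, Snora78; chr17:24720033-24720082, plus strand): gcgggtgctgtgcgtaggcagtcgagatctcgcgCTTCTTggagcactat
Snhg9 (Snora78; chr17:24719946-24719995, minus strand): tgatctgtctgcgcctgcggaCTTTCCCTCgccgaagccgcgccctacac
Among hosts of low members the run had 10 letters in Rplp2, 9 in Snhg12, 7 in Srcap, 6 in Snhg7 and 5 in Snhg3 and Rpl39, but 3 in Rpsa and 2 in Kansl2, Tbrg4 and Cct6a. Among hosts of high members it had 15 letters in Ipo7, 9 in Snhg9 and 1 in Eif5, so that runs of 5 or more letters occurred on both sides. Rps2 had 6 letters, but Snora78 lies before its printed start, and Snora64 (-0.10), which lies after it, was not a high member. In the windows shown, the runs of Srcap and Snhg9 ended before the annotated start, and those of Snhg3 and Rps2 began at bases 3 and 5 from it. These runs thus do not open the annotated transcript.

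The genes of the proteins that carry, build and place the H/ACA RNAs were read from the same fit. Of the mature particle, Dkc1, which encodes dyskerin, had a log2 difference of -0.05, and the core proteins Nhp2 and Gar1 had -0.10 and -0.09. Nop10, the smallest core protein, had signals of 10.99, 10.90 and 10.77 in the Ctrl arrays and of 10.52, 10.77 and 10.53 in the KO-labelled arrays, with overlap at the edge and a log2 difference of -0.28 (standard error 0.10, limma adjusted p = 0.379). Among assembly factors, Ruvbl1, an ATPase of the chaperone complex that builds these particles, had 8.49, 8.28 and 8.40 against 8.10, 7.86 and 8.06, a log2 difference of -0.38 (standard error 0.09, limma adjusted p = 0.252). Its partner Ruvbl2 had -0.16, the chaperone gene Shq1 -0.22, Nufip1 0.10 and Naf1, which holds the place of Gar1 during assembly, 0.14. Of the Cajal body genes, Wrap53, which brings scaRNAs and telomerase to the Cajal body, had -0.13, Coil -0.16 and Smn1 0.18. Terc, the telomerase RNA with its own H/ACA domain, had 4.58, 4.39 and 4.66 against 4.82, 4.61 and 4.64, a log2 difference of 0.15 at a dim signal, and Tert had -0.03. Of these 14 genes measured, 10 lay below 0 with a median of -0.09. At the unadjusted limit 2 were lower and 0 higher, against 5.33% and 5.87% of all genes, and none passed after adjustment.

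The 12 stand-alone pseudouridine synthases, which need no guide RNA, were evenly split with 6 below 0 and a median of 0.01. Pus7 had 5.76, 5.60 and 5.65 in the Ctrl arrays and 6.73, 6.04 and 6.33 in the KO-labelled arrays, a log2 difference of 0.70 (standard error 0.17, limma adjusted p = 0.257), the only one of this list past the unadjusted limit. The next, Pus10, had 0.19. Of 50 genes of ribosomal RNA synthesis and processing, 36 lay below 0 with a median of -0.06. At the unadjusted limit 4 were lower and 2 higher, against 5.33% and 5.87% of all genes. Taf1d, a subunit of the RNA polymerase I initiation factor, had 6.70, 6.81 and 6.88 against 7.34, 7.21 and 7.50, a log2 difference of 0.55 (standard error 0.09, limma adjusted p = 0.171), while Ddx56, Emg1 and Polr1e had -0.20, -0.20 and -0.27. The remaining genes past the limit, named after their values were seen, were Polr1b, at -0.23 with separate groups, and Myc, at 0.69 with overlapping groups. Without Ctrl replicate 3 the median of this list was -0.02.

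C/D snoRNAs, which guide ribose methylation with fibrillarin, were also mostly below 0. Of 65 Snord rows, 50 lay below 0 with a median log2 difference of -0.16. At the unadjusted limit 27 were lower and 5 higher, against 5.33% and 5.87% of all genes, and none was called after adjustment. Their core protein genes Nop56 and Nop58 had 0.26 and 0.16 and Fbl had -0.07. Of the 4 rows with an Rnu symbol, all lay below 0 with a median of -0.18, and 2 were past the unadjusted limit. These were Rnu3a, a U3 RNA and so itself of the C/D class, at -0.71 (standard error 0.12, limma adjusted p = 0.168), and Rnu11, the U11 RNA of the minor spliceosome, at -0.24 (standard error 0.06, limma adjusted p = 0.25). Rnu5g had -0.13 and Rnu7 -0.06, both at dim signals. Of the other short noncoding RNAs listed, 2 were below 0 and 3 above, with Rmrp, the RNA of a ribonuclease of ribosomal RNA processing, at -0.32, Rny1, a Y RNA, at -0.39, Rpph1, the RNA of ribonuclease P, at 0.09, Rn7sk at 0.01 and Vaultrc5 at 0.09. The 548 microRNA rows had a median of 0.02, with 14 lower and 73 higher at the unadjusted limit, against 5.33% and 5.87% of all genes. Their mean signals were dim, 4.19 to 4.20 in the Ctrl arrays and 4.23 to 4.27 in the KO-labelled arrays, below the array median of 5.04. A decrease would be hard to see in such rows. Whether the H/ACA members differ from the C/D snoRNAs was not tested.

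Markers of other cells were read beside these values. The 4 platelet markers all lay below 0, and their mean signal was 6.08 to 6.13 in the KO-labelled arrays and 6.22 to 6.64 in the Ctrl arrays, without overlap, as for the mean signal of the 42 members (7.05 to 7.08 against 7.21 to 7.41). Of 8 T, NK and B cell markers 5 lay below 0, with a mean signal of 5.50 to 5.94 against 5.50 to 6.13. The 7 macrophage markers all lay above 0, with 8.62 to 9.70 against 7.24 to 9.53, the lowest in Ctrl replicate 1, and the 7 hepatocyte markers measured had 7.98 to 9.14 against 8.02 to 8.998. Both erythroid markers measured lay below 0, with 3.96 to 4.29 against 4.17 to 4.96. Of 5 stellate cell markers 4 lay above 0, with 7.63 to 8.28 against 7.61 to 8.04. The part of all these cells in the differences was not tested. Without Ctrl replicate 1 the median over the H/ACA members was -0.21, and without Lyve-1-KO replicate 2, which had the highest hepatocyte markers, it was -0.24. These medians do not test the part of other cells. The platelet markers, whose group means did not overlap, cannot be set aside by leaving out 1 array. The labels name a spin column kit for RNA extraction, a kind of kit that retains short RNAs poorly, but their extraction text speaks of retina, so that the kit used for LSEC is not certain. The probes of a snoRNA can also read its intron in unspliced host RNA, and the signal is then not a direct measure of the mature snoRNA.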

How the data were processed

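LSEC of 3 mice per pool were measured on 6 MoGene-2_0-st arrays, 3 labelled Lyve-1-KO and 3 labelled wildtype (Ctrl). The deposited values are log2 signals that the authors had normalized by quantiles after assigning probes to Entrez genes through a custom definition file, and when sorted they are the same in each of the 6 arrays. The submitters' notes name RMA but no version. No depth applies, and 3 arrays per group limit the precision. Symbols came from the platform annotation (23281 of 24479 rows, 1198 unnamed) and were the current RefSeq symbols wherever the gene ID was found (125 IDs were not). All 42 members matched RefSeq GRCm38.p6, which lists 48 such genes, of which 6 have no row and are not analysed here. Start sequences are from RefSeq GRCm38.p6.

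The groups were compared with limma 3.58.1 in R 4.3.3 (lmFit, eBayes, no filter), adjusted by Benjamini-Hochberg over all 24479 rows at 0.05, and by exact permutation tests for single values. Named were members with an unadjusted p under 0.05, separate groups, extreme spread or a shared host, their hosts, and fixed lists. The members and lists were chosen with earlier results of these data known. Both groups carry the replicate numbers 1 to 3 in the labels. Deviations of same-numbered pools correlated at 0.206, 0.134 and 0.124, against -0.218 to 0.0432 for other pairs, so the numbers were taken to pair the pools. The main fit and the exact permutation tests did not use this pairing, which entered only through the replicate block. Each array is 1 pool, so p-values measure the spread between pools. Alternatives were a replicate block, cyclic loess, centring on bright genes, a filter at the 40th percentile of the mean signal, a trended robust variance, array weights, the methods' test (one-way analysis of variance per gene) and leaving out each array. The fit was tested on simulated data.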

Additional observations from a re-analysis of the deposited data

How the results depend on the processing

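In the fit with a replicate block, 0 genes were called over the whole table (1 without it), and no call of a member changed. The block cannot move a log2 difference, because both groups hold every replicate number, so the members' median of -0.20 was bound to stay. The trended robust variance called 49 genes, 5 of them members, and the methods' test called 0 genes, with 8 lower members and 0 higher ones at the unadjusted limit of 0.05. Leaving out 1 array at a time gave 0 to 2 called genes (2 without Ctrl replicate 1, 0 without any other array), 11 to 19 lower and 2 to 5 higher members, with 5 higher without Ctrl replicate 3, and a members' median from -0.24 to -0.12, the last without Ctrl replicate 3. For the fits without 1 array, the share of all genes at the unadjusted limit is not given here, so these member counts have no background beside them. The median of the nucleolar genes ran from -0.084 to -0.020 and that of the noncoding hosts from 0.10 to 0.19, the last without Lyve-1-KO replicate 2. Of the 42 members, 36 kept their sign without each array in turn, and none of the 19 at an unadjusted p under 0.05 changed sign under any alternative run. The replicate block, the filter, the trended robust variance and the methods' test leave each log2 difference as it is. These alternatives could not turn a sign, and centring moved no array by more than 0.0016. Snora20 turned to 0.0034 with array weights. Without single arrays, Snora20 ran from -0.16 to 0.14, Snora64 from -0.18 to 0.015, Snora81 from -0.045 to 0.37, Snora43 from -0.13 to 0.068, Snora61 from -0.035 to 0.064 and Snora33 from -0.0090 to 0.14. The causes were not tested. Signals of dim members, such as Snora20 and Snora70, limit what can be read from them, and 3 arrays per group cannot give an exact permutation p below 0.1.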
